A study of Homo sapiens with 21 samples.

Results

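The genes described here are the well-expressed human genes whose symbol is ZNF followed by a number, with or without a final letter. They were selected on their level: a mean normalized value of at least 300 over all 21 libraries, which 145 of the 528 ZNF symbols met, out of 23201 gene symbols in all. The means over all timepoints chose the genes, so the levels themselves are given as a description. Just inside the limit were ZNF41 with a mean of 304, ZNF641 with 307 and ZNF580 with 308, and just outside it were ZNF839 with 297, ZNF205 with 296 and ZNF791 with 293. All 145 genes passed the filter on low values, and the smallest number of reads for any of them in any library was 110, far above the 3 reads that a count of 0 allows.

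RNA was sequenced from HMLE cells, a human mammary epithelial line that has been immortalized, either untreated (d0) or treated with TGFβ for 1, 4, 7, 10, 15 or 20 days (d1 to d20). TGFβ is a cytokine that drives epithelial cells towards a mesenchymal state, the epithelial to mesenchymal transition (EMT), and the time course was made to follow transcription during that change. Each of the 7 timepoints had 3 libraries, described by the authors as biological triplicates and named A, B and C here in file order. All groups were the same line, which limits the data to 1 immortalized model, and the dose of TGFβ is not given in the sources used here. The deposited values were normalized read counts with no correction for gene length, so they were compared between libraries and not between genes.

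Reads recovered from the values totalled 18847917 to 22667754 per library. Among the 145 genes, the root mean square log2 difference between libraries of a timepoint was 0.09 to 0.13, except that d7_C differed from d7_A and d7_B by 0.22. The summed value of 10 proliferation markers was 54266 in d7_C against 41275 and 42114 in the other d7 libraries, and that of 6 epithelial markers was 290271 against 523905 and 492644. Where that library decides a call or moves a d7 value that is described, the value without it is given too. Outside d7, the 6 epithelial markers were split against untreated cells, with 3 higher and 2 lower at d1. There were 3 higher and 3 lower at both d4 and d15, 1 higher and 4 lower at d10, and 2 higher and 4 lower at d20. All 6 mesenchymal markers were higher than in untreated cells on every day, while PTPRC, CD3E and CDH5, defining markers of immune and endothelial cells, had at most 3 reads in every library, and the 1 immune and 1 endothelial marker that passed the filter were lower than in untreated cells on every day. In bulk RNA, fewer cells of a type and less RNA per cell cannot be told apart.

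Most ZNF genes encode proteins with C2H2 zinc fingers, short loops folded around a zinc ion, which stand in rows and read DNA bases one after the other. The largest class also carries a KRAB domain, which binds the co-repressor TRIM28 and through it recruits the histone methyltransferase SETDB1 and HP1 proteins, so that the bound locus, often a transposable element, is packed into heterochromatin. SCAN domains let related zinc finger proteins pair with each other, and other ZNF proteins work in TGFβ signalling, chromatin complexes, ribosome control or mitosis. Translated reference coding sequences held at least 1 C2H2 finger for 139 of the 145 genes, a KRAB domain for 58 and a SCAN domain for 11. The median number of fingers was 12 in the 58 KRAB genes and 7 in the 84 genes without KRAB, and ZNF462 had the most, 34. ZNF185, ZNF259 and ZNF330 held none, and ZNF204P, ZNF252 and ZNF271, which are pseudogenes, had no protein in the annotation.

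Promoters were available for 122 of the 145 genes from RefSeq (GRCh38.p14), and 4 are shown, each as the 250 bases before the gene start in lower case with the motif found in capitals. ZNF358 had the largest rise on any day and ZNF367 the largest fall, and ZNF281 and ZNF664 were, respectively, higher and lower than in untreated cells on all 6 days, so these promoters were chosen after the values were seen. ZNF281 and ZNF664 were also chosen for a motif: each was the first by rank with an available promoter that held a match. ZNF319 and ZNF512B, which ranked above them, were passed over. The capitals mark a ZNF143 motif in ZNF358 (chr19:7515853-7516102, plus strand), an E2F motif in ZNF367 (chr9:96418371-96418620, minus strand), an NRF1 motif in ZNF281 (chr1:200410037-200410286, minus strand) and an E-box in ZNF664 (chr12:123972965-123973214, plus strand).
ZNF358: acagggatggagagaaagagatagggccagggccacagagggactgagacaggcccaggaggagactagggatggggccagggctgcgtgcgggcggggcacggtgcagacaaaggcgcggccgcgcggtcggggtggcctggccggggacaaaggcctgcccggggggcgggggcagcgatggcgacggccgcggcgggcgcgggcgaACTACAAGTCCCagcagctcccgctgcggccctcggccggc
ZNF367: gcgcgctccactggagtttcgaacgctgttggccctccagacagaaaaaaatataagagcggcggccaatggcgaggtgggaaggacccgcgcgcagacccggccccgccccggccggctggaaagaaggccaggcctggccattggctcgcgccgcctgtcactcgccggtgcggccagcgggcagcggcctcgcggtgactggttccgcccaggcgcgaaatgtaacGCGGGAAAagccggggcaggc
ZNF281: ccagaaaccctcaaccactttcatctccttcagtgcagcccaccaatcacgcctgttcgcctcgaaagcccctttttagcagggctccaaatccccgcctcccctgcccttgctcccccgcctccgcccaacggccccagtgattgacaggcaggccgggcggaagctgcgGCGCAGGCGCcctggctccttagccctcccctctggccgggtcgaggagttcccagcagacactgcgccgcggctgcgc
ZNF664: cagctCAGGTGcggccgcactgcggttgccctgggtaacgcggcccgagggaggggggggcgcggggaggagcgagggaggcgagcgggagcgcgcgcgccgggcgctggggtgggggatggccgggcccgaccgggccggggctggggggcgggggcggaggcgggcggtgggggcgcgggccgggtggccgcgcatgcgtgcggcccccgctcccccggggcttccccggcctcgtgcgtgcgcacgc

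The motifs were searched on both strands, and such matches describe the letters, not binding. The ETS motif CCGGAAGT was found in 16 of the 122 promoters (13.1%), against 3.64% of all 27305 promoters and 8.45% of the 6474 promoters of genes with a mean of at least 300. The ZNF143 motif, whose match in ZNF358 is in capitals above, was in 6 (4.92%, against 0.978% and 2.53%), namely ZNF189, ZNF277, ZNF286A, ZNF317, ZNF358 and ZNF451. The NRF1 motif, whose match in ZNF281 is in capitals above, was in 15 (12.3%, against 5.53% and 12%), and the E-box CAGGTG, which EMT repressors of the SNAI and ZEB families bind, was in 18 (14.8%, against 17.5% and 14.8%). The E2F motif TTTCCCGC was in ZNF367, ZNF644 and ZNF687 (2.46%, against 1.42% and 2.66%), the AP-1 motif TGANTCA in 5 promoters (4.1%, against 6.6% and 3.55%) and a YY1 motif in ZNF318 (0.82%, against 0.656% and 0.989%). The SMAD palindrome GTCTAGAC was in none, and 0.176% of all promoters hold it. Against well-expressed genes in general, the shares of ETS and ZNF143 motifs were thus the ones that lay highest, and this was not tested. In 1 member promoter, matches to different motifs overlapped.

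Each day of treatment was compared with untreated cells to ask which ZNF genes changed during EMT. At d15, 77 of the 145 genes (53.1%) were higher than in untreated cells and 32 (22.1%) lower, called where limma's adjusted p was below 0.05 over all 13343 genes tested, of which 39.2% were higher and 37.3% lower. At d20 the balance was the other way, with 25 genes (17.2%) higher and 63 (43.4%) lower, against 32.5% and 30.2% of all genes tested. The median log2 fold change of the 145 genes was 0.17 at d15 and -0.10 at d20, where that of all genes was 0.01 and 0.00. The 6 comparisons share the same untreated libraries.

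The other days fell on one side or the other in turn. At d1, 30 genes (20.7%) were higher and 46 (31.7%) lower, against 31.3% and 28.5% of all genes. At d4, 64 genes (44.1%) were higher and 37 (25.5%) lower, against 36.9% and 35.3%. At d7, 52 genes (35.9%) were higher and 40 (27.6%) lower, against 34.6% and 32.6%. Without d7_C these counts were 55 and 38, against 36.8% and 34.4%. With only d0 and d7 in the fit they were 37 and 28, against 28.2% and 25.6%. At d10, 39 genes (26.9%) were higher and 44 (30.3%) lower, against 37.0% and 30.7%. The median log2 fold changes on these 4 days were -0.03, 0.10, 0.05 and -0.01. Among the 301 other ZNF symbols tested, those with a mean under 300, 39.5% were higher and 21.6% lower at d15, and 8.31% were higher and 33.6% lower at d20.

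**Figure D1:**
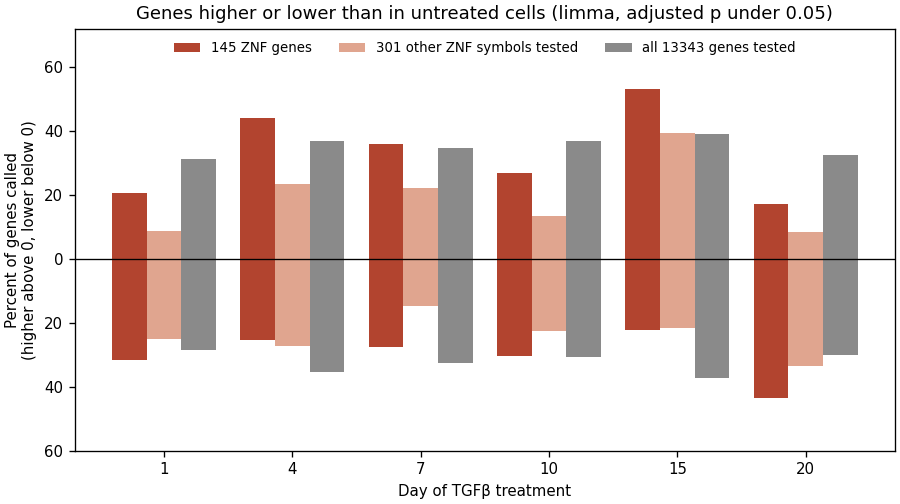
Percent of genes higher (bars above 0) or lower (bars below 0) than in untreated cells on each day of TGFβ treatment, called where limma's adjusted p was below 0.05, for the 145 ZNF genes, the 301 other ZNF symbols tested and all 13343 genes tested. The 145 genes reach 53.1% higher at d15 and 43.4% lower at d20.

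These counts against untreated cells depended on the scaling of the libraries. When every library was scaled to one common total, the median of all genes tested moved to between -0.20 and -0.14 on every day, and d1 had 10 ZNF genes higher and 89 lower, d4 had 33 and 65, d7 had 24 and 76, d10 had 17 and 86, d15 had 51 and 56, and d20 had 11 and 104. All genes moved the same way: at d15, 30.3% of them were then higher and 47.2% lower, against 35.2% and 38.6% of the ZNF genes, and at d20, 19.9% were higher and 50.8% lower, against 7.59% and 71.7%. On the remaining days 18.3% to 25.8% of all genes were higher and 49.1% to 50.5% lower. Relative to the median of all genes, the median of the 145 genes was, from d1 to d20 in order, -0.03, 0.10, 0.04, -0.04, 0.15 and -0.09 with the authors' scaling. It was -0.03, 0.10, 0.04, -0.04, 0.15 and -0.10 with the rescaling. Rescaling multiplied all genes of a library by the same factor, so this agreement was fixed in advance and is no separate check. Relative to all genes, d4 and d15 had the highest medians and d20 the lowest. The excess of higher over lower genes at d4, d7 and d15 turned with the same-total rescaling. With quantile normalization it also turned at d7, to 43 higher and 47 lower, against 29.3% and 39.8% of all genes. It stayed at d4, with 52 and 42 (31.7% and 40.9%), and at d15, with 79 and 31 (36.6% and 40.2%).

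The median range between the highest and lowest timepoint mean was 0.53 on the log2 scale, against 0.68 for the 8610 genes tested with a mean of at least 300 and 0.82 for all genes tested. A change of at least 2-fold on at least 1 day was seen for 16 genes (11%), against 30.4% of all genes tested and 20.7% of those with a mean of at least 300. Yet 144 of the 145 differed among the 7 timepoints (limma's F-test, adjusted p under 0.05), as did 95.9% of all genes tested. The exception was ZNF212, a KRAB gene, and ZNF212 and ZNF830 were the 2 genes called on no single day, against 3.21% of all genes. ZNF621, whose mean lay closest to the median of the 145, illustrates the usual size: 516 ± 13.4 (SD, n = 3) in untreated cells, 429 ± 42.0 on d4 and 601 ± 19.2 on d15, log2 fold changes of -0.27 and 0.22.

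**Figure D2:**
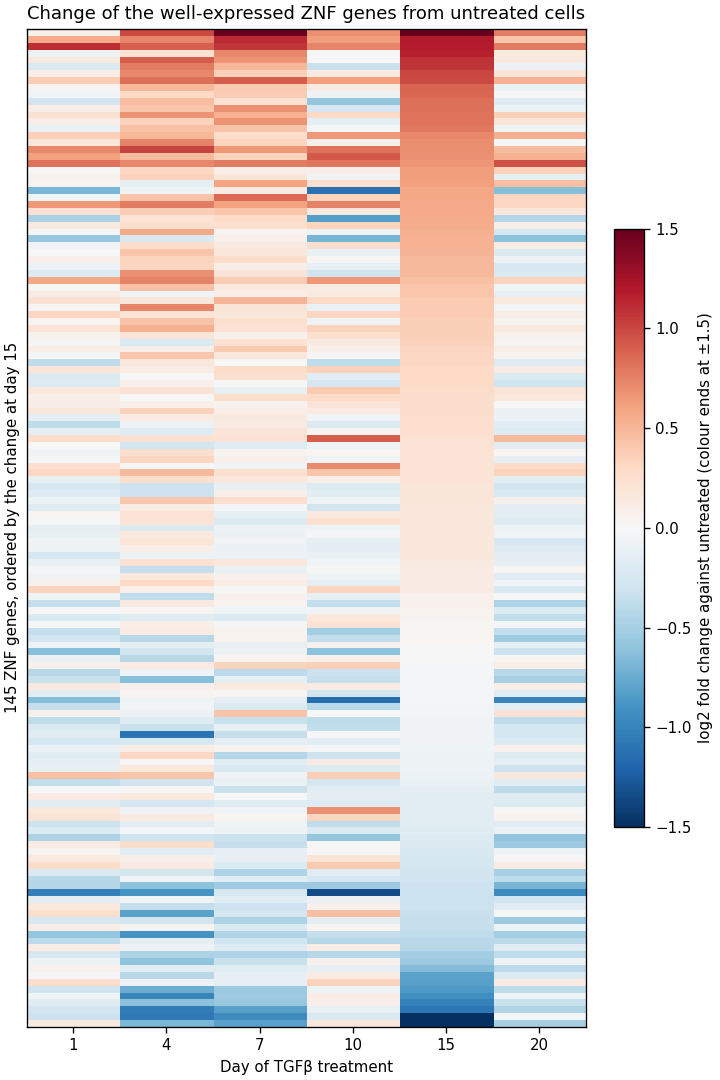
Log2 fold change against untreated cells (colour, ends at ±1.5) of each of the 145 ZNF genes (rows, ordered by the change at d15) on the 6 days of TGFβ treatment (columns). Rows that are red at d15 are mostly paler or blue at d20.

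Consecutive treated days were also compared, with no untreated library in the contrast. From d1 to d4, 69 genes rose and 30 fell (limma, against 32.9% and 32.0% of all genes), which is 99 genes (68.3%) against 64.9%. From d10 to d15, 78 rose and 37 fell, against 39.3% and 40.5%, and from d15 to d20, 23 rose and 96 fell (66.2%), against 37.7% and 36.3%. The median change of the 145 genes from d15 to d20 was -0.26. From d4 to d7, 38 rose and 47 fell, against 25.5% in each direction and 51.1% in all, and from d7 to d10, 41 rose and 58 fell, against 36.2% and 35.2%, or 71.4% in all. Over both directions, 115 genes (79.3%) changed from d10 to d15, near the 79.8% of all genes, and 119 (82.1%) from d15 to d20, against 74.1%. Of the 8610 genes tested with a mean of at least 300, 85.4% and 80.7% changed over these steps. Their shares were 73.3% from d1 to d4 (ZNF genes 68.3%), 58.2% from d4 to d7 (58.6%) and 78.1% from d7 to d10 (68.3%). Rescaling to the same total gave 89 and 27 for d10 to d15, where it gave 42.8% and 36.9% of all genes, and 20 and 101 for d15 to d20, where it gave 35.3% and 39.1%. Without d7_C the counts were 38 and 45 for d4 to d7, against 29.2% and 30.1% of all genes. For d7 to d10 they were 40 and 60, against 38.4% and 36.8%. The step from d4 to d7 depended most on the fit. With only those groups in it, 48 genes (33.1%) changed and not 85, and of all genes 14.8% were higher and 16.5% lower. From d7 to d10 calls were lost too, leaving 36 higher and 48 lower, against 32.0% and 29.9% of all genes.

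Changes of at least 1.5-fold were fewer. Against untreated cells, 5 of the 145 genes were higher by that much and 4 lower at d1 (11.6% and 8.76% of all genes), 15 and 13 at d4 (18.1% and 13.7%), and 13 and 3 at d7 (16.1% and 8.95%), or 14 and 6 without d7_C. Later there were 13 and 6 at d10 (13.9% and 13.7%), 24 and 9 at d15 (21.1% and 18.3%), and 3 and 6 at d20 (13.4% and 9.96%). Between consecutive days, 9 rose and 6 fell by 1.5-fold from d1 to d4 (11.4% and 8.70%), 4 and 2 from d4 to d7 (6.36% and 5.31%), 11 and 12 from d7 to d10 (12.2% and 16.5%), 24 and 13 from d10 to d15 (21.8% and 20.8%), and 7 and 23 from d15 to d20 (17.4% and 16.6%). The shares of ZNF genes were thus mostly below those of all genes. Of the 8610 genes tested with a mean of at least 300, 17.4% were higher and 16.9% lower at d15 (ZNF genes 16.6% and 6.21%). At d20 their shares were 11.3% and 4.48% (2.07% and 4.14%). From d10 to d15, 14.5% of them rose and 22.7% fell (16.6% and 8.97%). From d15 to d20, 17.6% rose and 11.2% fell (4.83% and 15.9%). The part of the level in these shares was not tested.

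The day of the highest mean was also counted for each gene. In 49 of the 145 genes (33.8%) the highest mean of the 7 timepoints was at d15 and in 31 (21.4%) at d4, where 22.9% and 13.3% of all genes tested had theirs. Only ZNF281 was highest at d20 (0.69%, against 9.05% of all genes), while 35 genes (24.1%, against 9.56%) were lowest there. Untreated cells held the highest mean of 26 genes (17.9%, against 19.3%) and the lowest of 25 (17.2%, against 22.9%).

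Proliferation markers moved on the same days. The summed value of the 10 markers was 59341 to 61622 at d0, 47473 to 49489 at d1, 35680 to 37372 at d4, 41275 to 54266 at d7, 53683 to 54716 at d10, 20111 to 20579 at d15 and 58428 to 60795 at d20. All 10 were lower than in untreated cells at d4, d7 and d15, 7 were lower at d1, 3 at d10 and 3 at d20, and 1 was higher at d20. The days with the smallest sums, d15 and d4, were those with the highest median of the ZNF genes, while d0 and d20 had similar sums and medians of 0 and -0.10. The part of proliferation in the ZNF counts was not tested.

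**Figure D3:**
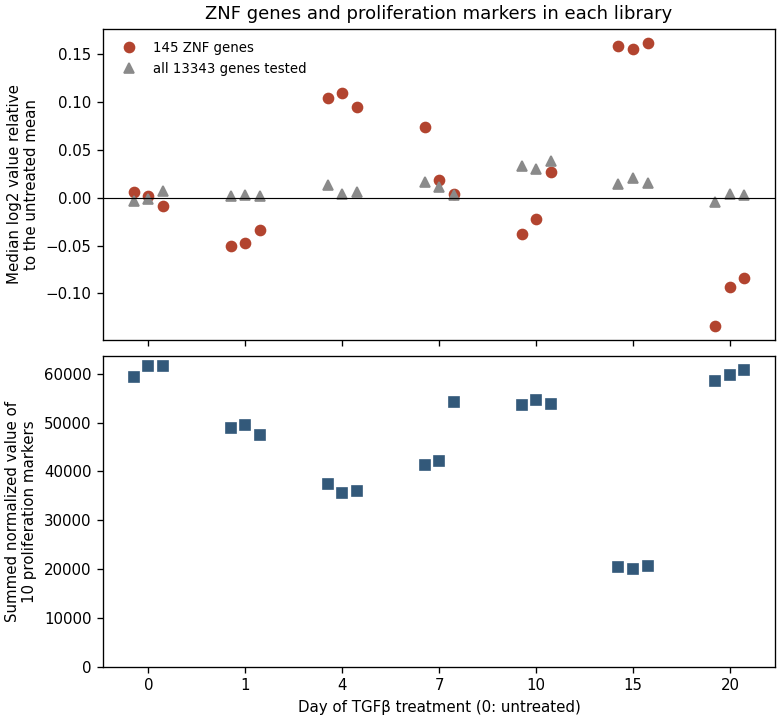
Upper panel: median over the 145 ZNF genes (circles) and over all 13343 genes tested (triangles) of the log2 value relative to the untreated mean, 1 point per library. Lower panel: summed normalized value of 10 proliferation markers in the same libraries. The 3 d15 libraries have ZNF medians of 0.16 and marker sums of 20111 to 20579, and d7_C has a marker sum of 54266.

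Of the 145 genes, 13 exceeded untreated cells on all 6 days (8.97%, against 14.3% of all genes) and 8 were lower on all 6 (5.52%, against 8.26%). The 13 were ZNF319, ZNF281, ZNF354A, ZNF532, ZNF827, ZNF526, ZNF22, ZNF710, ZNF598, ZNF282, ZNF787, ZNF746 and ZNF622. The 8 were ZNF512B, ZNF664, ZNF33B, ZNF362, ZNF518A, ZNF507, ZNF644 and ZNF770. With the same-total rescaling the counts were 7 and 30, or 4.83% and 20.7% against 8.78% and 20.8% of all genes. Without d7_C they were 12 and 7, against 14.8% and 8.78% of all genes. The d7 call was then lost for ZNF787 (log2 fold change 0.15, adjusted p = 0.0989, limma) and ZNF362 (-0.17, adjusted p = 0.0919). Another 42 genes (29%, against 28.7%) were higher on at least 1 day and lower on at least 1 other.

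ZNF319, a protein with 12 fingers and no KRAB domain, had values of 210, 207 and 170 in untreated cells. It had 459, 399 and 408 on d1, 350, 363 and 377 on d4, 424, 398 and 415 on d7, 335, 308 and 332 on d10, 452, 431 and 440 on d15, and 349, 328 and 328 on d20. No treated library overlapped the untreated ones. Its log2 fold change was 1.11 (standard error 0.07, adjusted p = 3.45e-11, limma) at d1, the largest rise of that day, and 1.17 at d15, and it was smallest at d10, 0.74.

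ZNF281 is a zinc finger factor that promotes EMT. Its untreated values were 723, 697 and 787, followed by 1342, 1306 and 1235 on d1, 1190, 1233 and 1216 on d4, 1191, 1250 and 1360 on d7, 1285, 1233 and 1339 on d10, 1204, 1149 and 1142 on d15, and 1440, 1373 and 1478 on d20. It thus rose within the first day and stayed between 0.66 and 0.96 on the log2 scale above untreated cells (adjusted p = 2.1e-11 at d1 and 9.55e-13 at d20, limma). Unlike most of the others, it was lowest among treated days at d15 and highest at d20.

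The remaining genes with the largest rises held on all days were ZNF354A, a KRAB gene, ZNF532 and ZNF827. ZNF354A rose from 409 ± 8.73 (SD, n = 3) to 828 ± 35.1 at d4, a log2 fold change of 1.01 (adjusted p = 9.14e-14, limma), and was 0.46 above untreated cells at d20. ZNF532 had 2295, 2365 and 2309 in untreated cells, 5669, 5378 and 4193 on d7 and 5475, 5275 and 5148 on d15. The lowest of its d7 values was that of d7_C, and its log2 fold change at d7 was 1.12, or 1.25 without that library. ZNF827, which brings the NuRD complex to telomeres that are kept by recombination, rose from 236 ± 20.9 to 471 ± 23.4 at d15 (log2 fold change 0.99, adjusted p = 9.98e-12, limma). ZNF354A and ZNF532 shared 26.5% and 22.2% of their 31-base stretches with other annotated genes, so part of their reads may belong to those. ZNF22 rose most at d10, from 515 ± 25.0 to 976 ± 45.4 (log2 fold change 0.92), and so did ZNF787, from 430 ± 13.9 to 810 ± 25.3 (0.91).

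ZNF512B, described as an enhancer of TGFβ signalling, fell. Its values were 688, 729 and 701 in untreated cells, 473, 470 and 472 on d1, 379, 375 and 383 on d4, 509, 537 and 500 on d7, 580, 516 and 558 on d10, 553, 521 and 557 on d15, and 522, 470 and 492 on d20. Every treated library lay below every untreated one, with the lowest values at d4 (log2 fold change -0.90, standard error 0.05, adjusted p = 2.93e-12, limma) and a partial return after it.

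ZNF362 changed in steps. It had 449, 492 and 489 in untreated cells, 253, 209 and 237 on d1, 279, 238 and 260 on d4, 425, 424 and 365 on d7, 200, 181 and 184 on d10, 414, 360 and 372 on d15, and 262, 234 and 240 on d20. The log2 fold change was -1.03 at d1, -1.34 at d10 (adjusted p = 1.24e-11, limma) and -0.96 at d20, but -0.24 at d7 (adjusted p = 0.0196) and -0.32 at d15. At d7 the call rested on single libraries: it was lost without d7_C (-0.17), d0_B (-0.21) or d0_C (-0.22). ZNF436, a KRAB gene, was low at d1, d10 and d20, with 733 ± 63.8 (SD, n = 3) in untreated cells, 336 ± 39.3 at d10 and 368 ± 15.3 at d20, and 674 ± 70.1 and 715 ± 29.4 at d7 and d15, where it was not called. At d1 it had 492, 454 and 453, and at d4, where it was not called either, 733, 705 and 654. ZNF664 fell from 4045 ± 139 to 2492 ± 87.7 at d20 (log2 fold change -0.70), ZNF33B, a KRAB gene with a close copy in ZNF33A, from 620 ± 30.8 to 435 ± 52.6 at d15 (-0.52), and ZNF518A from 665 ± 21.2 to 440 ± 33.2 at d20 (-0.60).

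The largest single changes were at d15. ZNF358 had 378, 402 and 370 in untreated cells and 415, 364 and 426 on d1, so the groups overlapped (adjusted p = 0.589, limma). It then had 769, 725 and 794 on d4, 1390, 1233 and 920 on d7, 637, 616 and 602 on d10, 1425, 1311 and 1291 on d15, and 685, 635 and 648 on d20. The log2 fold change was 1.80 at d15 (standard error 0.10, adjusted p = 3.13e-13, limma) and 1.60 at d7, or 1.77 without d7_C, and 20.9% of its 31-base stretches are shared with other genes. ZNF367, whose promoter is the one above with an E2F motif, had 558, 617 and 637 in untreated cells, 674, 637 and 685 on d1, 354, 385 and 385 on d4, 314, 319 and 396 on d7, 652, 691 and 693 on d10, 116, 99.5 and 118 on d15, and 445, 385 and 453 on d20. Its log2 fold change at d15 was -2.43 (standard error 0.09, adjusted p = 3.32e-16, limma), with the 3 libraries far below all others.

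ZNF512 fell with it at d15, from 942 ± 43.7 (SD, n = 3) to 284, 320 and 316 (log2 fold change -1.62, adjusted p = 1.6e-12, limma), and also at d4 and d7 (-1.07 and -0.94, or -1.08 at d7 without d7_C), while at d20 it had 921 ± 59.5. Its share of 31-base stretches found in other genes was 35.5%. ZNF37A, a KRAB gene, fell mainly at d4, with 290, 287 and 260 against 617, 588 and 600 in untreated cells (-1.10, adjusted p = 7.82e-12, limma), and was back at 600 ± 34.2 at d10. The pseudogene ZNF204P was lower at d1 (-0.68), d10 (-1.12) and d20 (-0.64) and higher at d15 (0.59, adjusted p = 4.23e-06, limma).

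**Figure D4:**
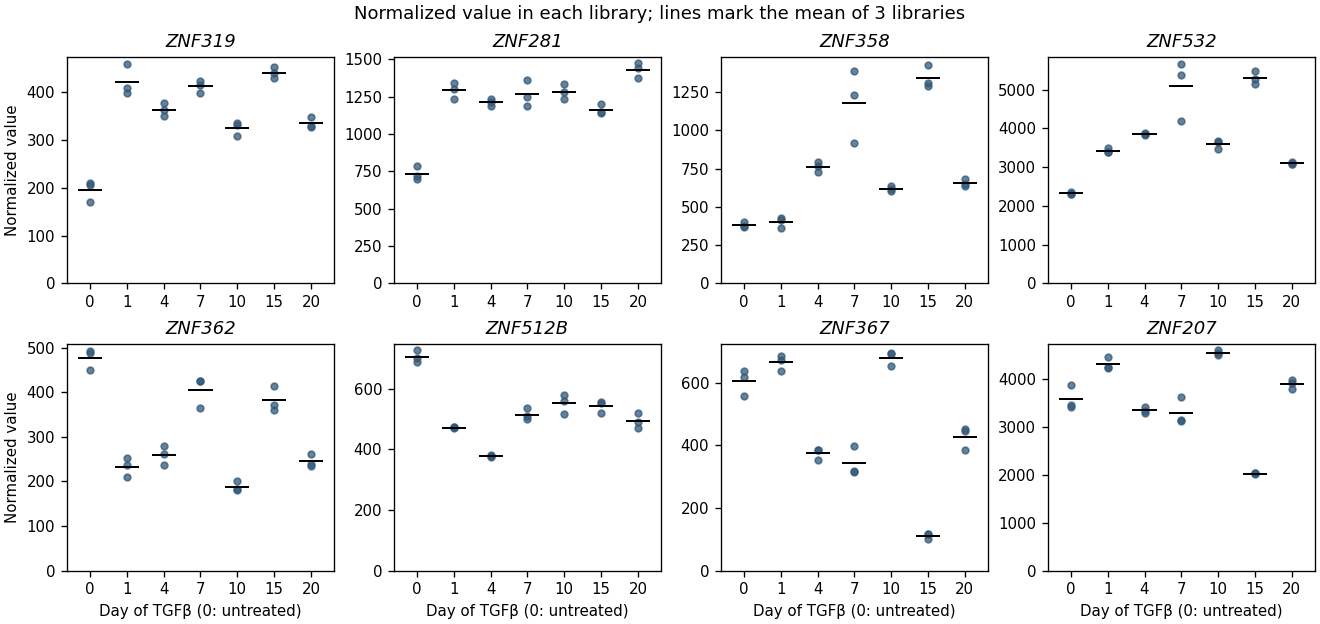
Normalized value (vertical axis, from 0, with a scale of its own in each panel) of 8 ZNF genes in each library (points) at the 7 timepoints (horizontal axis), with the mean of 3 libraries as a line. ZNF281 and ZNF319 are higher in all treated libraries, ZNF512B is lower in all of them, and ZNF367 and ZNF207 are lowest at d15.

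Among 9 listed regulators of TGFβ, SMAD and EMT, 5 were among the 145. At d4, d7 and d15, 4 of these were higher and 1 lower, and at d1, d10 and d20, 1 was higher and 1 lower, beside all-gene shares of 31.3% to 39.2% higher and 28.5% to 37.3% lower on those days. The 2 that moved on every day were ZNF281 and ZNF512B, described above. ZNF451, a SUMO ligase that binds SMAD proteins, had 1042, 982 and 897 in untreated cells and 1643, 1580 and 1617 on d4, a log2 fold change of 0.73 (adjusted p = 1.86e-10, limma), against -0.08 at d10. ZNF217, an oncogene of breast cancers that works with CtBP co-repressors, rose from 947 ± 51.4 (SD, n = 3) to 1257 ± 36.0 at d4 (0.41). ZNF398, a partner of SMAD3 in stem cells, rose from 467 ± 8.23 to 622 ± 17.4 at d4 (0.41). These 3 genes were called higher at d4, d7 and d15 and on no other day, but ZNF398 lost its call at d7 without d7_C (log2 fold change 0.15 with it and 0.11 without, adjusted p = 0.126, limma).

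Of the chromatin and promoter genes, 12 of 13 listed were among the 145. The counts were 6 higher and 2 lower for d4 and 2 higher and 7 lower for d20, with medians of 0.15 and -0.15. Of all genes, 36.9% were higher and 35.3% lower at d4, and 32.5% and 30.2% at d20. ZNF532, ZNF592 and ZNF687, which act together in a complex with ZMYND8, did not move alike: ZNF532 was higher on all 6 days, ZNF592 rose at d4 (0.23), d7 and d15 and fell at d20 (-0.15), and ZNF687 was lower at d1, d10 (-0.27) and d20 and higher on no day. ZNF516, found in CtBP complexes, had 683, 720 and 670 in untreated cells, 1118, 1079 and 1141 on d4, and 572, 582 and 537 on d10, log2 fold changes of 0.69 and -0.29 (adjusted p = 5.19e-09 and 0.000434, limma).

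ZNF644, a partner of the histone methyltransferases G9a and GLP, was lower on all days by a small amount, from -0.25 at d4 to -0.16 at d15. ZNF518A was lower on all days, and ZNF462, the gene with the most fingers, was lower on all but d4 (-0.42 at d15, with 534 ± 18.3 falling to 400 ± 4.43). ZNF335, a subunit of a histone H3K4 methyltransferase complex, fell at d7, d15 (-0.42) and d20. ZNF143, which binds promoters of many housekeeping genes, rose at d1 (0.43, from 287 ± 13.7 to 389 ± 5.15), d4 and d10. ZNF609, which links Integrator and the cohesin loader, rose at d1, d4 (0.35) and d15. ZNF410, an activator of CHD4, was within 0.14 of untreated cells on all days, and its call at d7 was lost without d0_B. Its value there was -0.05 with the same-total rescaling, which moved the median of all genes at d7 to -0.19, and 87% of its 31-base stretches are shared with other annotated genes.

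Genes for RNA and ribosome functions, 8 of them among the 145, included both rises and falls. At d4, 3 were higher and 3 lower, beside 36.9% and 35.3% of all genes. At d15, 5 were higher and 1 lower, beside 39.2% and 37.3%. ZNF598, the ubiquitin ligase that senses collided ribosomes, had 1385, 1405 and 1378 in untreated cells and 2284, 2241 and 2363 on d15 (log2 fold change 0.72, adjusted p = 2.73e-11, limma), and was higher on all days. ZNF622, a maturation factor of the large ribosomal subunit, was also higher on all days, most at d4 (0.53), and ZNF593, which acts in the same pathway, was higher at d1, d10 (0.71, from 321 ± 12.9 to 525 ± 3.73), d15 and d20. ZNF326, part of a complex that links splicing to elongation, fell at d15 from 537 ± 8.33 to 266 ± 20.9 (-1.01, adjusted p = 1.5e-10, limma), and also at d4, d7 and d20.

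ZNF638, which silences unintegrated retroviral DNA with the HUSH complex, was lower on all days but d15, where it was higher (0.19), and reached -0.31 at d4. The double-stranded RNA binder ZNF346 was lower on all days but d15, by at most 0.26 on the log2 scale. Its call at d7 was lost without d7_C (log2 fold change -0.15 with it and -0.11 without, adjusted p = 0.122, limma). ZNF385A, a p53 partner and RNA binder, had 1615, 1662 and 1573 in untreated cells, 2972, 2776 and 2112 on d7 (d7_C the lowest), 1371, 1378 and 1335 on d10 and 3039, 2784 and 2753 on d15, a log2 fold change of 0.82 at d15 and -0.25 at d10. At d7 it was 0.68, or 0.83 without d7_C. ZNF830, a splicing factor, was called on no day.

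ZNF207 encodes BuGZ, which loads the checkpoint protein BUB3 onto kinetochores. It had 3414, 3461 and 3885 in untreated cells, 4231, 4472 and 4246 on d1, 4508, 4555 and 4604 on d10 and 2037, 2035 and 2015 on d15. Its log2 fold change was 0.27 at d1, 0.35 at d10 and -0.82 at d15 (standard error 0.05, adjusted p = 2.77e-12, limma), so d15 was its lowest timepoint and d10 its highest, as for ZNF367, the other gene of the mitosis and genome maintenance list among the 145. Both were lowest on the day when the proliferation markers were lowest, and the part of proliferation in this was not tested.

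ZNF185, a LIM-domain protein of the actin cytoskeleton, had 1714, 1800 and 1912 in untreated cells, 3266, 3027 and 2439 on d7 and 3281, 3088 and 3171 on d15 (log2 fold change 0.81, adjusted p = 1.83e-09, limma). At d7 the log2 fold change was 0.68, or 0.80 without d7_C. At d10 it was at 1633 ± 67.1 (SD, n = 3) and not called (-0.15, adjusted p = 0.0854). ZNF91, a KRAB protein that silences SVA and LINE-1 elements, rose from 254 ± 11.8 to 376 ± 17.4 at d15 (0.56, adjusted p = 1.77e-07, limma) and was higher on all days but d10 (0.14, adjusted p = 0.0677).

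**Figure D5:**
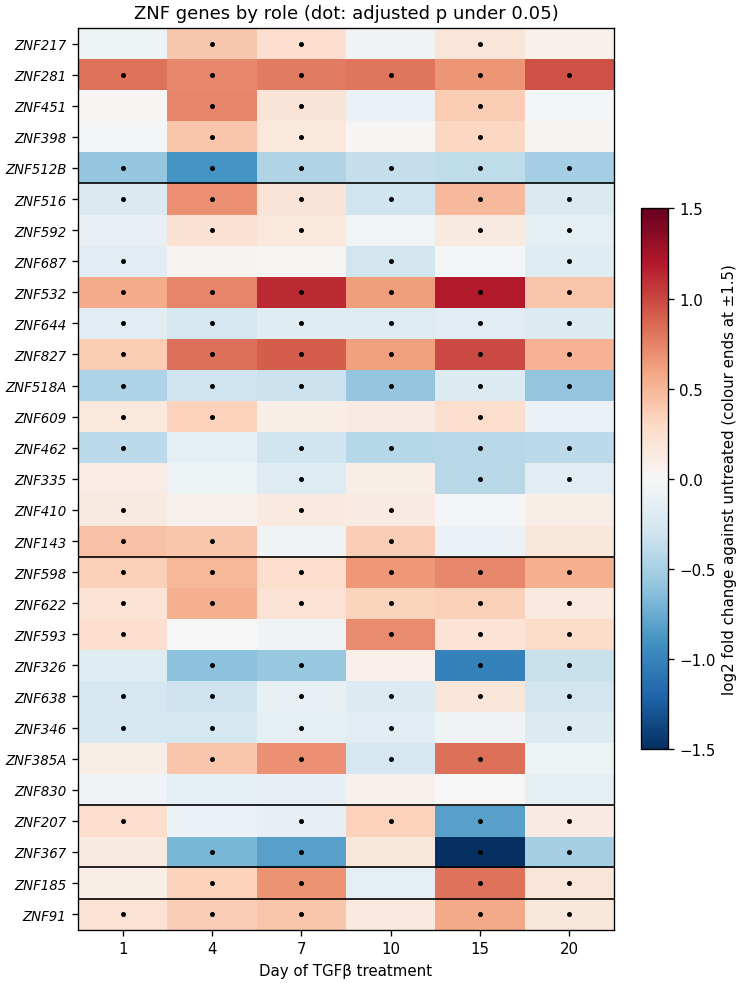
Log2 fold change against untreated cells (colour, ends at ±1.5) of the 29 ZNF genes on the role lists (rows) on each day of TGFβ treatment (columns), with a dot where limma's adjusted p was below 0.05. Lines separate, from the top, regulators of TGFβ, SMAD and EMT, chromatin and promoter complexes, RNA and ribosome, mitosis and genome maintenance, the actin gene ZNF185 and the transposon silencer ZNF91; ZNF281 and ZNF512B are coloured in opposite directions on all days.

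Genes with and without KRAB were also counted, beside the 39.2% of all genes that were higher and 37.3% lower at d15 and the 32.5% and 30.2% at d20. At d15, 32 of the 58 KRAB genes (55.2%) were higher and 11 lower, and of the 84 genes without KRAB 44 (52.4%) were higher and 20 lower. At d20, 5 KRAB genes (8.62%) were higher and 25 (43.1%) lower, against 20 (23.8%) and 36 (42.9%) of the genes without KRAB. The medians at d15 were 0.21 and 0.16, and at d20 -0.09 and -0.11. The 11 genes with a SCAN domain had medians of 0.30 at d15 and -0.19 at d20, with 7 higher and 1 lower at d15. Proteins with 10 or more fingers (63 genes) and with 1 to 9 (76 genes) had medians of 0.17 and 0.16 at d15 and -0.10 and -0.13 at d20. No difference between these classes was tested.

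TRIM28 and the other genes for heterochromatin that KRAB proteins depend on were listed as well. Of 16 such genes that were analysed, 9 were higher and 3 lower at d10, and 3 were higher and 9 lower at d15, with medians of 0.16 and -0.29, where 37.0% of all genes were higher and 30.7% lower at d10 and 39.2% and 37.3% at d15. TRIM28 itself moved little, with 7261 ± 205 (SD, n = 3) in untreated cells, 8811 ± 89.0 at d10 (log2 fold change 0.28) and 6902 ± 147 at d15 (-0.07, not called). UHRF1, which guides DNMT1 in keeping DNA methylation, had both the largest rise and the largest fall, from 1763 ± 82.8 to 3189 ± 122 at d10 (0.86, adjusted p = 2.4e-05, limma) and to a mean of 378 at d15 (-2.22, standard error 0.15, adjusted p = 8.56e-12).

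Many ZNF genes stand in clusters, and by gene order in RefSeq (GRCh38.p14) 13 pairs of the 145 were next to each other among protein-coding genes. Neighbours did not differ less from each other than other pairs at d15: the median difference in log2 fold change was 0.51 in the 13 pairs and 0.44 over all 10440 pairs, and at d4 it was 0.56 and 0.39. At d7 it was 0.38 and 0.31. Neighbours differed less on the remaining days, with 0.16 and 0.25 at d1, 0.22 and 0.32 at d10, and 0.19 and 0.27 at d20. At d15, 3 neighbour pairs were called in the same direction and 5 in opposite ones, against 32.8% and 23.6% of all pairs. The counts were 4 and 3 for d4 (against 25.7% and 22.7%), 3 of each for d7 (20.2% and 19.9%), and 4 and 0 on each of the other days, d1 (14.1% and 13.2%), d10 (16.2% and 16.4%) and d20 (21.6% and 15.1%). One of the opposite pairs at d15, chosen after its values were seen, was ZNF561 and ZNF562, both KRAB genes. ZNF561 had 813, 765 and 807 in untreated cells, 1534, 1626 and 907 on d7 (d7_C the lowest) and 1699, 1819 and 1840 on d15, a log2 fold change of 1.17 (adjusted p = 5.05e-08, limma), and at d7 it was 0.72, or 0.99 without d7_C. ZNF562 had 505, 503 and 468 in untreated cells and 392, 400 and 386 on d15, a log2 fold change of -0.32 (adjusted p = 1.31e-05).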

How the data were processed

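Per the labels and the values, the authors deposited a signal for each gene and library, the read count divided by 1 size factor per library, and no column was left unused. The submitters' processing notes name hg19, STAR 2.7 and Salmon 1.4 with no role. How each was used for these libraries, and the test, were not given in the sources used here. Dividing each column by the value of 1 read returned whole reads in 100% of the values.

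Values were tested as log2(value + 1) with limma 3.58.1 (R 4.3.3, trend) in 1 fit over the 7 timepoints, for the 13343 genes with a mean of at least 10. That fit gave each gene 1 spread for all 7 timepoints, although d7_C differed more from its replicates than other libraries did. The Benjamini-Hochberg adjustment was made within each contrast over all genes, with a threshold of 0.05 and no minimum fold. Fold changes are on the log2(value + 1) scale. The columns carry no replicate numbers, so A, B and C only name libraries. Named genes were those changed in 1 direction on all 6 days, the 5 each way with the greatest smallest change, the 2 largest changes each way per day, the members of role lists, the genes next to the limit of 300 and 1 example. The members and lists were chosen with earlier results of these data known. Alternatives were another pseudocount, filter or scaling, the groups compared alone, a minimum fold of 1.5, leaving out each library, and edgeR 4.0.16 and DESeq2 1.42.0 on recovered reads. Simulated data were used to check the fits. KRAB, SCAN and C2H2 domains were found in translated GENCODE 29 transcripts with HMMER 3.4 profiles and a C2H2 pattern.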

Additional observations from a re-analysis of the deposited data

Results flagged for a closer look

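For 9 of the 44 named ZNF genes, the change against untreated cells was called in opposite directions on different days and the 2 days also differed from each other in limma's test. Such opposite calls are common, at 28.7% of all genes tested, and as the days were picked by those calls the test adds no evidence of its own. All are log2 differences between the day with the larger and the day with the smaller value. ZNF204P differed by 1.71 between d15 and d10, ZNF207 by 1.17 between d10 and d15, ZNF385A by 1.07 between d15 and d10, and ZNF516 by 0.98 between d4 and d10. ZNF580 differed by 0.63 between d15 and d1, ZNF638 by 0.50 and ZNF621 by 0.49 between d15 and d4, ZNF41 by 0.47 between d10 and d15, and ZNF592 by 0.38 between d4 and d20. For each gene the days compared were those of its largest called rise and largest called fall, so the sizes were picked for being large.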

How the results depend on the processing

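No paired analysis was possible because each column names a timepoint but no replicate. After same-total rescaling, d1 had 10 genes higher and 89 lower, d4 had 33 and 65, d7 had 24 and 76, d10 had 17 and 86, d15 had 51 and 56, and d20 had 11 and 104. The shares of all genes higher and lower were then 18.3% and 50.2% (d1), 25.8% and 49.5% (d4), 22.8% and 49.1% (d7), 21.5% and 50.5% (d10), 30.3% and 47.2% (d15), and 19.9% and 50.8% (d20). On all 6 days there were 7 and 30, against 8.78% and 20.8% of all genes. ZNF410 turned to -0.048 at d7, where the median of all genes moved to -0.19. With a minimum of 1.5-fold the ZNF counts higher and lower were 5 and 4, 15 and 13, 13 and 3, 13 and 6, 24 and 9, and 3 and 6 on those days, and 2 and 0 on all 6, since this asks for more than the test alone. Between consecutive days, 1.5-fold left 15 (9 higher, 6 lower) from d1 to d4, 6 (4 and 2) from d4 to d7, 23 (11 and 12) from d7 to d10, 37 (24 and 13) from d10 to d15 and 30 (7 and 23) from d15 to d20. With only the groups compared in the fit, 48 changed from d4 to d7 (23 higher, 25 lower), where all genes also went from 51.1% called to 14.8% higher and 16.5% lower. In that setting d7 against untreated cells had 37 higher and 28 lower, against 28.2% and 25.6% of all genes. The step from d7 to d10 had 36 and 48, against 32.0% and 29.9%. The cause of these losses was not tested. With 1 library left out, d1 had 26 to 33 higher and 40 to 51 lower, d4 had 54 to 66 and 36 to 40, d7 had 45 to 55 and 34 to 40, d10 had 37 to 45 and 37 to 47, d15 had 70 to 79 and 29 to 35, and d20 had 19 to 28 and 55 to 65. Of 816 fold changes recomputed under other settings, 768 kept direction and side of the threshold, 47 lost the call, 44 of them by the minimum fold, and 1 turned. edgeR on recovered reads called 38.2% of all genes higher and 38.9% lower at d15, and 74 (51%) and 34 (23.4%) of the ZNF genes. DESeq2 called 38.6% of all genes higher and 36.2% lower at d15, and 75 (51.7%) and 30 (20.7%) of the ZNF genes.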
